A study of Mus musculus with 3 samples.

Results

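The data describe where the zinc finger protein CTCF was bound around 7 genes of the red cell program in mouse blood stem and progenitor cells. The genes were Klf1, Zfpm1, Nfe2, Myb, Hbs1l, Bcl11a and Sox6. A peak counted as a member when any base of it lay in the gene body or within 150 kb of either end, with gene records from GENCODE M21 on mm10. This rule took 64 of the 18945 peaks in the list (0.338%). They lay at 6 loci, because the windows of Myb and Hbs1l ran together, and the loci made up 0.105% of the length of the 19 autosomes and Chromosome X.

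The study used ChIP-seq, in which DNA attached to a protein is pulled down with an antibody and sequenced. There was 1 CTCF library, from LSK cells of the bone marrow of adult male C57BL6 mice, made with a Millipore CTCF antiserum. LSK cells are the fraction that holds the blood stem cells and the earliest progenitors, sorted as cKit+ and Sca1+ and without CD4, CD8, IL7Ra, CD11b, Ly6g, CD45R or Ter119. The 2 input libraries of the series, from LSK cells and from megakaryocyte erythroid progenitors (MEP), were not analyzed here. With 1 library there was no replicate, no second cell type and no test. Each peak carried the authors' fold enrichment, a linear ratio of reads in the peak over a background, and their −log10 p-value. Read counts per peak were not given in the list, so the depth behind a single peak is unknown. All intervals are 95% intervals, by the Wilson method for shares and exact Poisson for densities, and cover counting error only. The list holds no expression, so the identity of the sorted cells was not checked.

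CTCF binds a long DNA motif through its central zinc fingers. Bound sites can stop the cohesin ring as it extrudes a chromatin loop, and loops form most often between sites whose motifs point toward each other. Among the genes, Klf1 encodes the activator of the adult beta-globin gene, Zfpm1 encodes FOG1, the partner of GATA1, and Nfe2 encodes the large subunit of NF-E2, which acts at the globin locus control region. Myb keeps progenitors dividing. Hbs1l is its neighbor, a gene for a ribosome rescue factor and not a transcription factor, and the space between them holds erythroid enhancers of Myb. Bcl11a and Sox6 encode repressors of embryonic and fetal globin genes.

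The sequences below carry the main findings. They were read from GRCm38.p6, the assembly whose coordinates are called mm10. Capitals mark matches to the CTCF core motif, a 12-base consensus, with at most 1 mismatch. The first set shows the peak within the Klf1 gene and the strongest peak of all 64, upstream of Zfpm1, both on the plus strand, because each held 3 matches and neither held an exact one.

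Klf1 coding exon, chr8:84903112-84903266: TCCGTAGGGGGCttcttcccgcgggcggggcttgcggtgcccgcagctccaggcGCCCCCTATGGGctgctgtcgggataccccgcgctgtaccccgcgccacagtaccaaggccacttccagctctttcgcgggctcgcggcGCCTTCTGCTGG
Zfpm1 upstream peak, chr8:122259405-122259638: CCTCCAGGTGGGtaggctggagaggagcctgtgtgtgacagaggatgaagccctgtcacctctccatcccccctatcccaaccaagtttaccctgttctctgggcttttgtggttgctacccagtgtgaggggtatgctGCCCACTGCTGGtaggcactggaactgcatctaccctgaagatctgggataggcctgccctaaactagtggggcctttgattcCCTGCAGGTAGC

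The second set shows 5 sites, at 3 loci, that shared the same 12 bases. Each is printed in the direction of the motif with 9 bases to either side.

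Klf1 locus, chr8:84914203-84914232, minus strand: ctgcagaggCCAGAAGAGGGCgccagattc
Klf1 locus, chr8:84956941-84956970, minus strand: tcaaagaagCCAGAAGAGGGCaccagatcc
Klf1 locus, in Junb, chr8:84975599-84975628, plus strand: ctaaggaagCCAGAAGAGGGCattgcatcc
Nfe2 locus, in Copz1, chr15:103279941-103279970, minus strand: gctgcatagCCAGAAGAGGGCgccagatct
Myb-Hbs1l locus, in Ahi1, chr10:21033969-21033998, plus strand: ccatggagaCCAGAAGAGGGCatcaaattc

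The third set shows the sites that bordered the peak-free stretches over Myb and Sox6, and the site within Hbs1l.

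Left of Myb is the Ahi1 site above, and right of Myb, chr10:21189188-21189217, minus strand: caaaaggtgGCAGTAGATGGCtcacctctc
Hbs1l intron, chr10:21337401-21337430, minus strand: ctgcaaagaCCAGAAGGTGGCgccagatct
Sox6, beyond the 3′ end, chr7:115453478-115453507, plus strand: tccaaacagCCACGAGGTGGCgccatggct
Sox6, within the gene near the 5′ end, chr7:116033094-116033123, minus strand: cctttgtacCCACAAGAGGGCaacatcttg

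The fourth set shows the row of sites downstream of Nfe2 that all had the motif on the minus strand, in map order, and the site within Nfe2, which did not.

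Nfe2 row, chr15:103165607-103165636, minus strand: cctcaatggCCGATAGATGGCgctcgtggc
Nfe2 row, chr15:103172699-103172728, minus strand: cctgagcagCCACAAGGGGGCtctgggacc
Nfe2 row, chr15:103177226-103177255, minus strand: cacacttgaCCAGCAGGGGGAagcagatgc
Nfe2 row, chr15:103178355-103178384, minus strand: ttcacactgCCAGCAGAGGGCaacacgcac
Nfe2 row, strongest, chr15:103182362-103182391, minus strand: ctcaggtgtCCGGCAGGGGGCgcccgcgag
Nfe2 intron, chr15:103250371-103250400, plus strand: cctgggtgcCCAGCAGAGGGAgccagtgtg

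The loci differed in how densely CTCF was bound. The Nfe2 window held 20 peaks in 310 kb (64.5 per Mb, 39.4 to 99.6) and the Klf1 window 17 peaks in 303 kb (56.0 per Mb, 32.6 to 89.7). The Zfpm1 window held 8 peaks in 355 kb (22.5 per Mb, 9.73 to 44.4), the Myb-Hbs1l window 8 in 544 kb (14.7 per Mb, 6.35 to 29.0), the Bcl11a window 5 in 396 kb (12.6 per Mb, 4.10 to 29.5) and the Sox6 window 6 in 868 kb (6.91 per Mb, 2.54 to 15.0). The intervals of Nfe2 and Klf1 overlapped each other and lay above those of Myb-Hbs1l, Bcl11a and Sox6, and both overlapped that of Zfpm1. Over all 6 loci the density was 23.0 per Mb (17.8 to 29.4), against 7.19 per Mb over the chromosomes. Peaks are denser around genes, so windows of the same kind around all 21755 protein-coding genes are the closer comparison, and their median was 12.8 per Mb with quartiles of 5.92 and 22.6. Of these windows 99.9% had a lower density than that of Nfe2 and 99.5% a lower density than that of Klf1. The shares were 74.9% for Zfpm1, 53.7% for Hbs1l, 48.9% for Bcl11a, 46.3% for Myb and 31.6% for Sox6, so only the Nfe2 and Klf1 windows lay in the top 10%. The Klf1 window held 21 protein-coding gene starts and the Nfe2 window 8, where the median window held 7, so the 2 dense loci differed in how many genes they held.

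**Figure D1:**
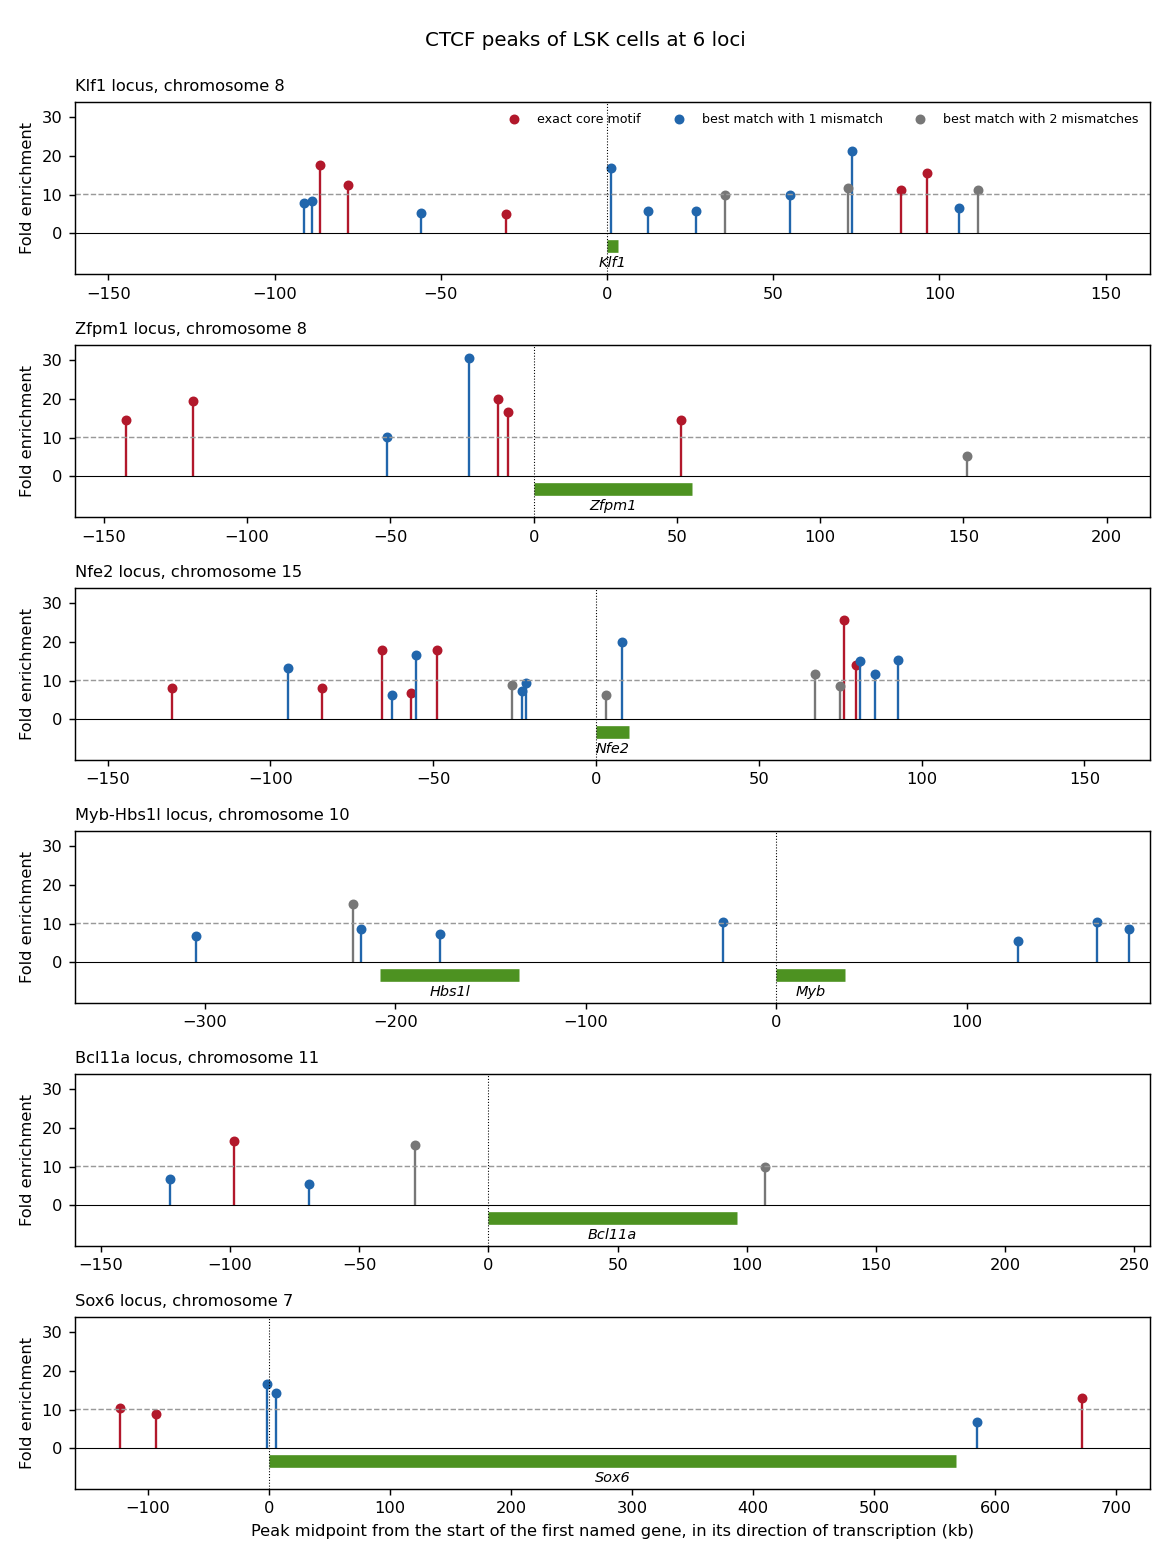
Each panel plots the CTCF peaks of 1 locus as stems, with the distance of the peak midpoint from the start of the first named gene on the horizontal axis (kb, positive in the direction of transcription) and fold enrichment on the vertical axis. Colors give the best match to the core motif, green bars are the gene bodies, the dashed line is the median of all peaks (10.12), and the 20 peaks at Nfe2 contrast with the empty bodies of Myb and Bcl11a.

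The median strength of the peaks was close to that of the whole list, but the upper part was stronger. The median fold enrichment of the 64 peaks was 10.44 (8.81 to 13.38), at the 51.4th percentile of all peaks, whose median was 10.12. By locus the median ran from 8.585 at Myb-Hbs1l to 15.66 at Zfpm1, with 9.79 at Klf1 and at Bcl11a, 11.745 at Sox6 and 11.75 at Nfe2. At Zfpm1 the peaks spanned 5.22 to 30.67. Of the 8, 7 were in the stronger part of the list, at or above the median, both by fold enrichment and by p-value. By fold enrichment 6 lay above the median and 1 was equal to it (10.12). Of the 8 peaks at Myb-Hbs1l, 3 were in that part by fold enrichment and 1 by p-value, and the highest fold enrichment there was 15.01. The quartiles of the 64 peaks were 7.668 and 15.42, against 7.83 and 13.38 over all peaks. More than 10% of the 64, 14 peaks, reached 16.64, the value that opens the highest 10% of the list.

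**Figure D2:**
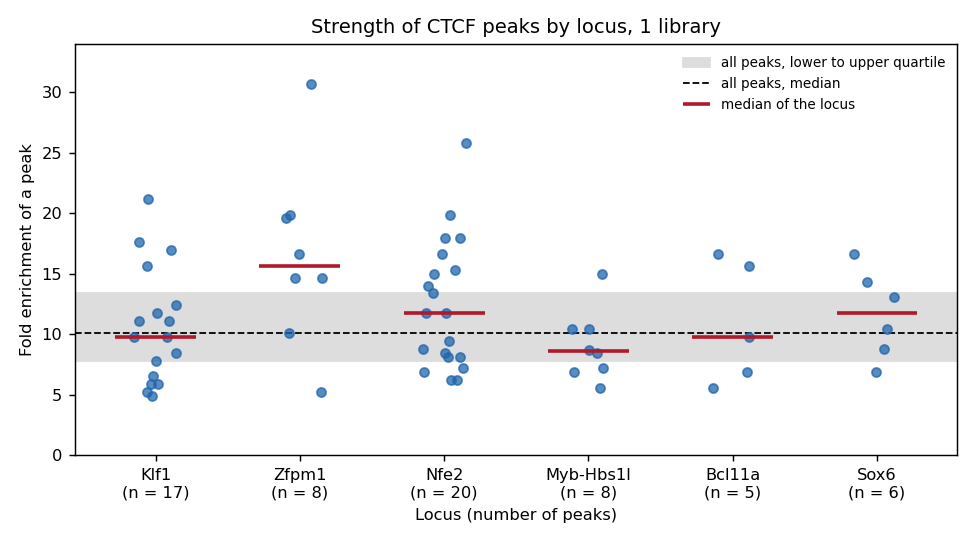
Each point is the fold enrichment of 1 peak, set out by locus along the horizontal axis, with a red line at the median of the locus and the median and quartiles of all 18945 peaks in black and gray. The medians run from 8.585 at Myb-Hbs1l to 15.66 at Zfpm1, and the ranges of the loci overlap.

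Measured from the start of the gene record, Klf1 had the nearest peak of the 7 genes. Measured from any annotated transcript start, Nfe2 (0 bp), Zfpm1 (0 bp) and Sox6 (133 bp, at Sox6-209, outside the basic set) had nearer ones. The Klf1 peak (chr8:84902740-84903521) lay 812 bp downstream of the start and was strong, at 16.97 (−log10 p-value 37.31). The peak covered 763 bases of the coding sequence of exon 2 of 3 and 19 bases of intron 2. This is the exon stretch printed first above, in which 1 match lay on the plus strand and 2 on the minus strand. No other of the 7 gene records had CTCF within 1 kb of its start, where 8.59% of protein-coding genes had a peak.

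The other peaks of the Klf1 window were spread over its neighbors. The strongest (chr8:84975271-84976011, 21.21) lay in Junb, a gene for an AP-1 subunit, 73.3 kb downstream of the Klf1 start. Upstream, 4 peaks lay within 13.6 kb at and beside Dand5, with fold enrichments of 7.83 to 17.62, and the best match of all 4 was on the minus strand. Downstream, 4 peaks lay within 24.0 kb from Hook2 to Best2, with 6.53 to 15.66. The weakest peaks lay nearer to Klf1, at the starts of Calr (5.22) and Syce2 (4.89) upstream and 12009 and 26592 bp downstream (5.87 each). Of the 21 protein-coding gene starts in the window, 7 had a peak within 1 kb, where 8.59% of all protein-coding genes had one. The peaks at Mast1 (9.79) and Hook2 (11.09) covered the start itself, and those of Dand5, Calr, Syce2, Klf1 and Best2 lay 410 to 861 bp away. In the other windows such a peak lay at 1 of 9 starts at Zfpm1 (Cyba, 243 bp, 5.22) and 1 of 3 at Sox6 (1110004F10Rik, 645 bp, 16.64). There was none at the 8 starts at Nfe2, the 3 at Myb-Hbs1l or the 2 at Bcl11a. Over all 6 windows it was 9 of 46 starts, with 7 of the 9 at Klf1.

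At Zfpm1 the strong binding lay upstream. A group of 3 peaks within 14.6 kb ended 8396 bp before the gene start, and their fold enrichments were 30.67, 19.9 and 16.64 in the order toward the gene. The first of them (chr8:122259142-122259974, −log10 p-value 72.352) was at the 99.9th percentile of all peaks by fold enrichment. It held no exact motif but 3 matches with 1 mismatch, 2 on the plus strand and 1 on the minus strand, as printed above. The other 2 peaks each held an exact motif. Inside Zfpm1 there was 1 peak (chr8:122333036-122333797, 14.68), 50.9 kb from the start, over 77 bases of coding exon 6 of 10 and 685 bases of intron 5. It held an exact motif on the minus strand. It also covered the starts of the short transcripts Zfpm1-202 and Zfpm1-204, which are outside the GENCODE basic set. The 59.3 kb between the upstream group and this peak, with most of the gene, had none. From this peak a stretch of 99.4 kb without a peak ran through the end of the gene to the peak at Cyba. It was longer than 71.1% of stretches between neighboring peaks.

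Nfe2 lay between rows of CTCF sites. Downstream of the gene, 66.7 to 92.4 kb from its start, 7 peaks lay within 26.4 kb in and beyond Smug1, a gene for a DNA glycosylase, with fold enrichments of 8.48 to 25.78. The strongest (chr15:103181858-103182713, −log10 p-value 79.351) held an exact motif. Of these 7 peaks, 5 had a match with at most 1 mismatch, and all 5 best matches were on the minus strand. Upstream, 3 peaks (7.18 to 9.46) lay within 4.88 kb in Copz1, a coat protein gene, and 5 peaks (6.2 to 17.95) lay within 17.6 kb at Zfp385a, where 4 best matches were on the minus strand and 1 on the plus strand. In the whole window 14 best matches were on the minus strand and 2 on the plus strand, where all peaks of the list were split 7959 to 7881. The exact motifs alone gave 6 to 1.

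Nfe2 itself held 2 of these peaks. The stronger (chr15:103250005-103250811, 19.9, −log10 p-value 37.803) lay in intron 2 of the transcript Nfe2-205, 7592 bp from the start of the gene record. It was 654 bp from the start of Nfe2-205 itself. The starts of Nfe2-207, Nfe2-210 and Nfe2-208, like Nfe2-205 in the basic set, were 704, 705 and 865 bp away. The best match of this peak, with 1 mismatch, was 1 of the 2 on the plus strand. The weaker (chr15:103255148-103255717, 6.2, −log10 p-value 5.445) lay 2686 bp from the start of the gene record. The record begins with Nfe2-203, a transcript outside the basic set, and the weaker peak covered the start of Nfe2-201, a coding transcript of the basic set, with 290 bases of untranslated sequence in its first exon. Its best match had 2 mismatches. The distance of Nfe2 from CTCF therefore depends on the transcript taken as its start.

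No peak lay in Myb. The gene sat in a stretch of 155 kb without a peak, longer than 80.9% of the 18925 stretches between neighboring peaks, whose median was 43.2 kb. The percentile counts each stretch once, but long stretches cover more of the chromosomes. A stretch taken because it holds a gene, 36.0 kb long for Myb, is therefore likely to rank high, and the percentile was not corrected for this. The nearest peak (chr10:21188823-21189628, 10.44, −log10 p-value 11.414) lay 27839 bp upstream, over the start of the lincRNA Gm40608. It was the only peak in the 135 kb between Myb and Hbs1l, where the enhancers lie. That makes 7.41 per Mb there, from 1 peak, close to the 7.19 per Mb over the chromosomes. On the other side of Myb the next peak was in Ahi1, 126.7 kb from the start, and was weak (5.55). The motif at the left border of the Myb stretch was on the plus strand and that at the right border on the minus strand, so they pointed toward each other across the gene.

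The stretch from the intergenic peak to Hbs1l was 147 kb long. The Hbs1l peak (chr10:21337102-21337797, 7.18, −log10 p-value 6.644) lay in intron 5 of Hbs1l-209, 41123 bp from the gene start. Its motif and that of the intergenic peak were both on the minus strand. No peak at the Myb-Hbs1l locus held an exact core motif (0 of 8, 0 to 32.4%), and 7 of the 8 held a match with 1 mismatch. The strongest peak of the locus (chr10:21382706-21383536, 15.01) lay in Aldh8a1, beyond Hbs1l, with 2 mismatches in its best match. Peaks of this locus had the lowest median GC content of the loci, 42.6%, against 55.3% at Zfpm1 and 47.0% over all peaks.

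No peak lay in Bcl11a either. The gene, 96.1 kb long, was held whole in a stretch of 135 kb, longer than 78.1% of stretches. A gene without a peak has to lie in a stretch longer than itself, so its length sets part of this percentile. The nearest peak (chr11:24049109-24049819, 15.66, −log10 p-value 23.324) lay 28237 bp upstream, in A830031A19Rik, and the peak beyond the 3′ end (9.79) lay 106.6 kb from the start. The best match in both had 2 mismatches. The strongest peak of the locus (chr11:23979327-23979973, 16.64), 98.1 kb upstream, held its only exact motif.

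Sox6 had CTCF at its 5′ end and almost nowhere else. A peak 1246 bp upstream of the start (chr7:116040042-116040819, 16.64, −log10 p-value 19.395) lay 645 bp from the start of 1110004F10Rik, which is transcribed in the opposite direction. The 1 peak within the gene (chr7:116032727-116033469, 14.36, −log10 p-value 13.227) lay in intron 1 of Sox6-204, 5327 bp from the start of the gene record. From there a stretch of 579 kb without a peak ran through the rest of the gene to a peak beyond its 3′ end (6.85). This stretch was longer than 95.9% of all stretches. The gene is 568 kb long with its only peak near the 5′ end, so its length sets most of this percentile. The motifs at the borders of the stretch were on the plus strand at the left and on the minus strand at the right. They pointed toward each other, as at Myb. All 6 peaks of the locus held a match with at most 1 mismatch, and 3 held an exact motif.

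**Figure D3:**
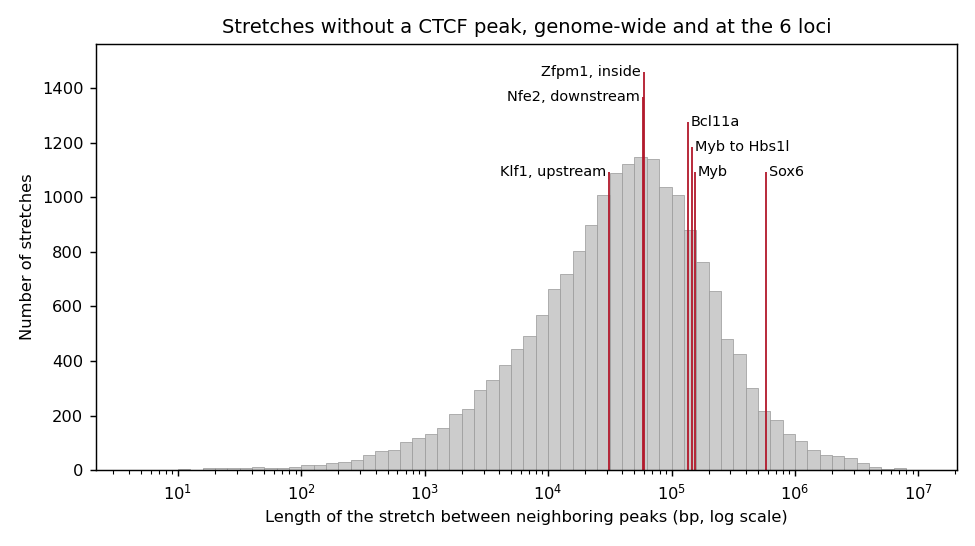
The histogram counts the 18925 stretches between neighboring peaks by length (horizontal axis, bp, log scale), and red lines mark stretches at the loci. The stretch within Sox6 is the longest of those marked, and those at Myb, between Myb and Hbs1l and at Bcl11a lie at 135 to 155 kb. Those marked upstream of Klf1, downstream of Nfe2 and inside Zfpm1 lie near the middle. A longer stretch that begins in Zfpm1 (99.4 kb) is not marked.

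Longer genes have more room for a peak. In all, 5 of the 7 had a peak in the body (6 peaks in all), where 30.0% of protein-coding genes had one, but the 7 genes were mostly long. Of the 6628 genes at least as long as Myb, 47.3% had no peak in the body, and of the 2601 at least as long as Bcl11a, 35.2% had none. The 1 peak of Sox6 compares with a median of 2 among the 175 genes at least as long, of which 44.0% had 1 or none. The absence of peaks from Myb and Bcl11a was therefore common at their lengths. Klf1 and Nfe2 were short (3.36 kb and 10.2 kb). Among genes within a factor of 1.5 of the length of Klf1, 89.5% had no peak in the body, and at the length of Nfe2 79.5% had none and 99.6% had at most 2.

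**Figure D4:**
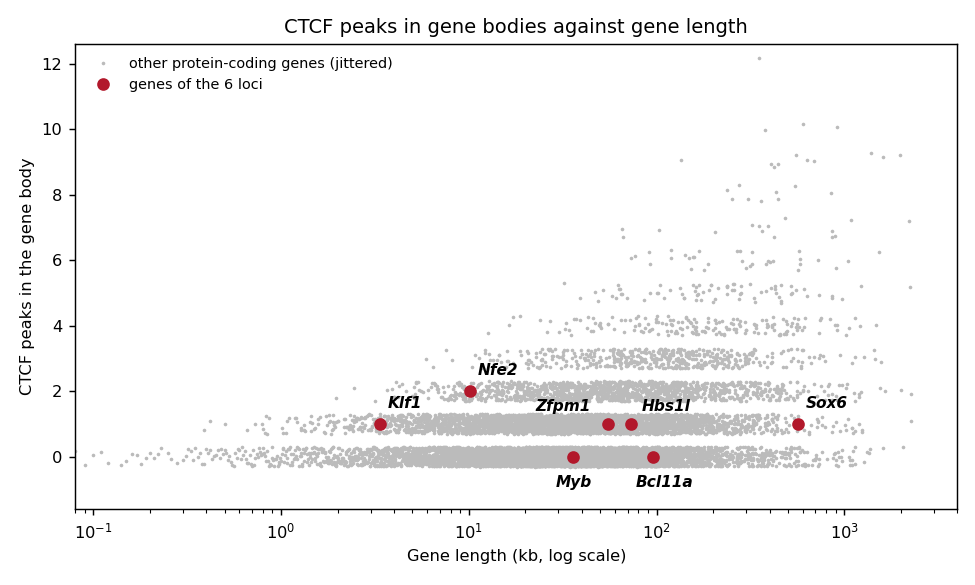
Each gray point is a protein-coding gene placed by its length (horizontal axis, kb, log scale) and the number of CTCF peaks in its body (vertical axis, points spread slightly around whole numbers), and red points are the 7 genes. Genes with more than 12 peaks (5 of 21755) lie beyond the axis. Myb and Bcl11a sit at 0 among many genes of their length, and Nfe2, with 2, sits above most genes near it.

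A distance of 10 kb from the gene start took in a peak for 4 of the 7 genes (Klf1, Sox6, Nfe2 and Zfpm1) and for 29.3% of protein-coding genes. All 7 had one within 50 kb, as did 14732 of the 21755 protein-coding genes. The order by distance from the start of the gene record was Klf1 (812 bp), Sox6 (1246 bp), Nfe2 (2686 bp), Zfpm1 (8396 bp), Myb (27839 bp), Bcl11a (28237 bp) and Hbs1l (41123 bp). Measured from any annotated transcript start, Hbs1l had a peak at 6875 bp, and 5 of the 7 genes had one within 10 kb. The share of all genes by that measure was not counted. In a list of 18 partners of these factors (cofactors and other factors of their complexes), 8 had CTCF within 10 kb of the start and 2 of them within 1 kb. One was Gfi1b, which encodes a transcriptional repressor that works in the red cell and platelet lineages (387 bp, 13.38, the highest value within 10 kb in the list). The other was Kdm1a, a histone demethylase, whose start was covered (8.48). In a list of 11 family relatives, 4 had CTCF within 10 kb of the start and 0 within 1 kb, and the highest value within 10 kb was 11.42, at both Mybl1 and Mybl2. Median window densities were 13.4 per Mb for the 7 genes, 21.7 for the partners and 14.6 for the relatives, against 12.8 for all protein-coding genes.

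**Figure D5:**
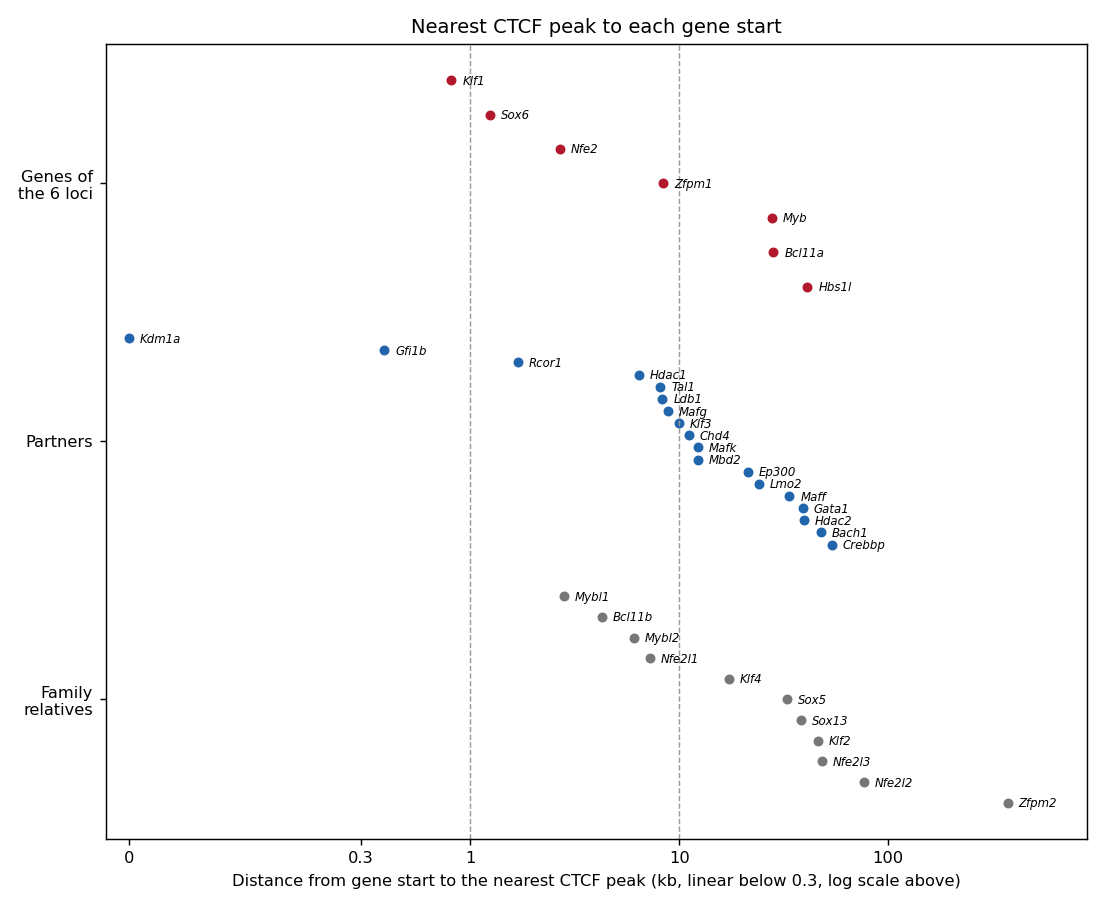
Each point is the distance from a gene start to the nearest CTCF peak (horizontal axis, kb, linear below 0.3 and log above), in 3 bands for the 7 genes, 18 partners and 11 relatives, with dashed lines at 1 and 10 kb. Of the 7 genes, 4 lie left of the 10 kb line, as do 8 partners and 4 relatives.

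Over whole peaks the motif was about as frequent at these genes as in the whole list. An exact core motif was found in 21 of the 64 peaks (32.8%, 22.6 to 45.0), against 35.6% of all peaks. With at most 1 mismatch it was found in 53 (82.8%, 71.8 to 90.1), against 83.6%. The match lay near the middle of the peak, at a median of 30.5 bp from the midpoint in the 21 peaks with an exact motif, 17 of them within 100 bp. Peaks with an exact motif had a median fold enrichment of 14.68, against 9.075 for the 32 whose best match had 1 mismatch and 9.79 for the 11 with 2 mismatches. The corresponding medians over all peaks were 11.09, 9.79 and 9.14. The strongest peaks without an exact motif were the Zfpm1 upstream peak (30.67) and the Junb peak (21.21).

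The 12 bases shared by 5 of the printed sites, CCAGAAGAGGGC, were the most frequent core of the whole list. They were the best match in 1161 of the 15840 peaks with a match (7.33%), and in 1153 of these they lay in repeat sequence, in soft-masked bases of the assembly. All 5 sites at the loci lay in repeats. They included the strongest peak at Klf1, in Junb (21.21), and the weak peak that bordered the Myb stretch (5.55), with 5.87, 9.46 and 9.79 for the others. In all, 8 of the 53 matches at the loci were in repeats (15.1%, 7.85 to 27.1), against 12.9% over all peaks. The other 3 lay at Myb-Hbs1l, Bcl11a and Sox6, and at Bcl11a it was the strongest peak, 98.1 kb upstream. The median fold enrichment was 9.135 for the 8 and 11.75 for the 45 outside repeats (8.81 and 10.44 over all peaks). The authors allowed reads that map to more than 1 place, and the part of this in peaks at repeats was not tested.

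Motif direction between neighbors was counted where both peaks had a match with at most 1 mismatch. At the loci, 7 of 41 neighboring pairs pointed toward each other (17.1%, 8.53 to 31.3), 10 pointed apart and 24 lay on the same strand (58.5%, 43.4 to 72.2). Over the list the shares were 25.1% (24.4 to 25.9), 25.6% and 49.3%. Among the 2447 pairs at least as far apart as the peaks around Myb, 34.7% (32.9 to 36.6) pointed toward each other, so the arrangement at Myb and Sox6 was more frequent among long stretches than among all pairs.

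Most of the 64 peaks lay away from gene starts. Within 1 kb of the start of any gene record there were 14 (21.9%, 13.5 to 33.4), against 14.1% of all peaks, and 7 of the 14 were at Klf1. By midpoint, 6 peaks lay in the 7 genes, 27 in other protein-coding genes and 31 outside protein-coding genes. The readthrough model Gm20388, which spans the Zfpm1 window, was left out of this count. The shares of all peaks in these classes were not counted, so whether the loci differ from the list in this is unknown. The 64 peaks were 413 to 1055 bp wide with a median of 719 bp, against 715 over all peaks. Motifs of the red cell factors were searched on both strands of each peak. The GATA motif AGATAA was in 15 peaks (23.4%, against 30.0% of all peaks), the NF-E2 motif TGAGTCA in 8 (12.5%, against 11.1%) and the KLF motif CCNCNCCC in 42 (65.6%, against 47.9%). The median GC content of the 64 peaks was 50.8%, against 47.0%, and CCNCNCCC is rich in GC. The part of GC content in this was not tested, and a match of letters is not a bound site.

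The promoters in the RefSeq table (250 bases before to 50 after a start) could be matched for 6 of the 7 genes, all but Nfe2. None of these held an exact core motif, which 1.41% of 27025 promoters held, so its absence from 6 genes is the usual outcome. None overlapped a peak, and the share of all promoters that did was not counted.

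The limits of the windows left out peaks a short way beyond. The nearest to an edge were 7401 bp outside the Zfpm1 window (6.2) and 8230 bp outside the Myb-Hbs1l window, on the Ahi1 side (12.73). The first peaks inside the same edges had fold enrichments of 14.68 at Zfpm1 and 8.69 in Ahi1.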

How the data were processed

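CTCF ChIP-seq peaks of 1 LSK library were analyzed. The deposited list gives for each peak a fold enrichment (a linear ratio made by the authors) and a −log10 p-value, which starts at 5.001. A false discovery rate column of unstated scale was not used. Reads were mapped to mm10. According to the methods this was done with Bowtie 0.12.8 and Samtools 0.1.8, with multiply mapping reads kept and ChrM and unplaced chromosomes left out, and peaks were called with MACS 1.3.7.1. Bcl2fastq and another Bowtie, 1.0.0, stand in the submitters' processing notes. For MACS, its settings and whether it used the input: not given in the sources used here. Neither of the 2 inputs was analyzed here.

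Windows of 150 kb, distances and overlaps were computed in Python 3.11.15 (pandas 2.3.3, numpy 2.4.6, scipy 1.17.1, statsmodels 0.14.6, pysam 0.24.0, matplotlib 3.10.9) with GENCODE M21. The CTCF core motif was searched on both strands of GRCm38.p6, and soft-masked bases were taken as repeats. The motif search and the interval counts were checked on simulated data, and the other steps were not. With 1 library no comparison was tested. The genes and lists were chosen with earlier results of these data known. Named were each of the 7 genes, the strongest peak of each locus, the peak nearest each start, all peaks in the 7 genes, neighbors with a peak within 1 kb of the start, and partners and relatives with a peak within 1 kb or the highest value within 10 kb. Other peaks, and the counts by shared core and motif direction, were chosen after their values were seen. Alternatives were other windows, stronger peaks alone, mismatches, merged peaks and other definitions of a start.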

Additional observations from a re-analysis of the deposited data

How the results depend on the processing

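Of 33 alternative values 16 stayed within the limits set for a change and 17 moved. With gene bodies alone the count of peaks fell to 6, the density to 7.13 per Mb (the level of all peaks) and the median fold enrichment rose to 14.52. Within 50 kb there were 24 peaks at 15.6 per Mb, and 20.8% held an exact motif, against 35.6% of all peaks. In the stronger part of the list by p-value there were 32 peaks (11.5 per Mb, against 3.60 for all such peaks), 50% with an exact motif against 41.6%. By fold enrichment there were 35 (12.6 per Mb, against 3.73), 45.7% with the motif against 41.1%. Allowing 1 mismatch gave 82.8%. The genes with a peak near the start numbered 1 within 1 kb (8.59% of protein-coding genes) and 7 within 50 kb (14732 of 21755). They numbered 5 within 10 kb of any transcript start, a measure not counted for all genes. Peaks within 1 kb of a start numbered 9 for protein-coding records (9.33% of all peaks) and 24 for every transcript start (20.1%). Windows of 100 and 300 kb gave 54 and 91 peaks (24.8 and 19.9 per Mb). No paired analysis was possible because there was 1 ChIP library and no test. The cause of each change beyond its construction was not tested. Read depth per peak is unknown, so the absence of a peak means only that none was listed.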
